A study of Homo sapiens with 4 samples.

Results

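Interferon-stimulated genes are the genes that cells switch on when interferon binds its receptors, and 34 of them, chosen by symbol from the common type I interferon response, were followed here among the 43714 genes of a raw count table. All 34 symbols matched an Ensembl gene ID in the table. The cells were MDA-MB-231, a human triple-negative breast cancer line of mesenchymal form, stably transfected with the 7TGP plasmid, a Wnt/beta-catenin reporter whose 7 TCF sites control the fluorescent protein EGFP. After puromycin selection (3 ug/mL) and 8 rounds of sorting and expansion, a reporter-negative line (MDA-MB-2317TGP-NEG, more than 95% EGFP-negative) and a reporter-positive line (MDA-MB-2317TGP-POS, more than 80% EGFP-positive) were kept in DMEM with 10% FBS. Each line gave 2 RNA libraries of a single batch. Both lines carry the plasmid, the labels name no interferon treatment, and each is a sorted population of a single parental line, so reporter state and any other difference between the sorted lines cannot be told apart. Nothing in the labels says that a line was cultured separately for its libraries, so every p-value reflects the spread of 2 libraries a line, and this may be technical only.

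In the textbook pathway, type I interferon binds the receptor chains IFNAR1 and IFNAR2, the kinases JAK1 and TYK2 phosphorylate STAT proteins, and STAT2 joins IRF9 in a complex called ISGF3. ISGF3 binds a short sequence, the interferon-stimulated response element, near the start of its target genes. The targets include sensors and enzymes that attack viral RNA, a ubiquitin-like modifier, and feedback inhibitors such as USP18. In many tumour cells a low level of the same genes persists without any added interferon.

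The interferon-stimulated genes did not move as a block. Between the lines, 7 members rose in the reporter-positive line (IFI44L, IFI27, EPSTI1, IFIH1, BST2, XAF1 and IFIT5), 7 fell (USP18, OAS1, PARP9, OAS2, IRF7, SAMD9 and IRF9) and 20 did not pass. Over all 30952 genes tested, 22.4% were called, 11.6% as higher and 10.9% as lower, so a call in each direction was common in this comparison. Among protein-coding genes with a mean of at least 1 CPM (counts scaled to library size), 16.4% were called higher and 16.8% lower. In bulk RNA, fewer cells expressing a gene and less RNA per cell cannot be told apart. The largest differences were in USP18, which fell 2.89-fold, and in IFI44L and IFI27, which rose 1.84-fold and 1.52-fold. The other 31 members all differed by less than 1.5-fold. Genes of the same family and the same stretch of chromosome parted: IFI44L rose and IFI44 did not pass, SAMD9 fell and SAMD9L did not pass, and OAS1 and OAS2 fell and OAS3 did not pass. Differences between such neighbours were not tested, and the count ratios given for them below are descriptions.

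The element that ISGF3 reads was visible next to genes that rose and genes that fell. Its core, GAAA and GAAA with any 2 bases between them on either strand, was searched in the RefSeq promoter windows (250 bases before to 50 after each annotated start, build GRCh38.p14), which held 28 of the 34 members. It was present for 20 of the 28 members, against 4.38% of the 27305 genes in the promoter table. USP18, OAS2 and IRF7, which fell, and IFIT2, OASL and MX2, which did not pass, had no window and were not searched. The stretches below are shown because they put the core of called members side by side. Sequences run 5′ to 3′ on the gene's strand, capitals mark each match to the core, and the first 6 genes rose while SAMD9 and PARP9 fell. In IFIT5 and PARP9, and in the first of the IFI27 matches, the core appears in reverse complement, as TTTC and TTTC with 2 bases between them, and in BST2 a pair of matches overlaps.
IFI44L, chr1:78620365-78620394, plus strand: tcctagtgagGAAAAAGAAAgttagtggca
IFI27, chr14:94110625-94110653, plus strand: cagTTTCGGTTTCctgGAAAATGAAAcct
EPSTI1, chr13:42992272-42992301, minus strand: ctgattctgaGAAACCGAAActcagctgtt
IFIH1, chr2:162318686-162318715, minus strand: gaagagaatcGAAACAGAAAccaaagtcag
BST2, chr19:17405738-17405767, minus strand: tttctggGAAACTGAAACTGAAAacctaat
IFIT5, chr10:89414539-89414567, plus strand: ttacgtttagTTTCGATTTCttaagtttc
SAMD9, chr7:93118056-93118165, minus strand: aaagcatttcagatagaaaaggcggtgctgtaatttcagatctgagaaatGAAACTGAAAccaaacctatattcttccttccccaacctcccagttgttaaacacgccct
PARP9, chr3:122564322-122564351, minus strand: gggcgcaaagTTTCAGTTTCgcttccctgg

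Among the other called members in the promoter table, OAS1, IRF9 and XAF1 had no match to that core in their windows, which says only that these letters are not there. The gamma-activated site core TTCNNNGAA, an element of the interferon gamma response, was present for 9 of the 28 members and for 9.38% of all genes in the table. The TCF site ATCAAAG, the kind of element the reporter itself carries, was present for 0 of the 28 members and for 3.18% of all genes. A gamma-activated match can share bases with the other core, as in the IFI27 stretch, where the TTC that ends the first match and the GAA that starts the next are 3 bases apart. A match describes the sequence only.

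All 34 members passed the filter on low counts and were tested with edgeR's quasi-likelihood test, with Benjamini-Hochberg adjustment over all 30952 genes tested and a threshold of 0.05. Among the 14391 protein-coding genes with a mean of at least 1 CPM (counts scaled to library size), 33.2% were called. The 14 called members were 41.2% of their list, and no test of the list as a whole was made. The members' median log2 fold change was 0.10, and that of all tested genes was -0.00. Their median absolute log2 fold change was 0.22, as was that of all tested genes, against 0.18 in the protein-coding genes at 1 CPM or more. With total count scaling in place of TMM, 4 members were called higher and 9 lower, and without reporter-negative library 1 the counts were 3 and 4, or 4 and 3 without library 2 of that line.

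**Figure D1:**
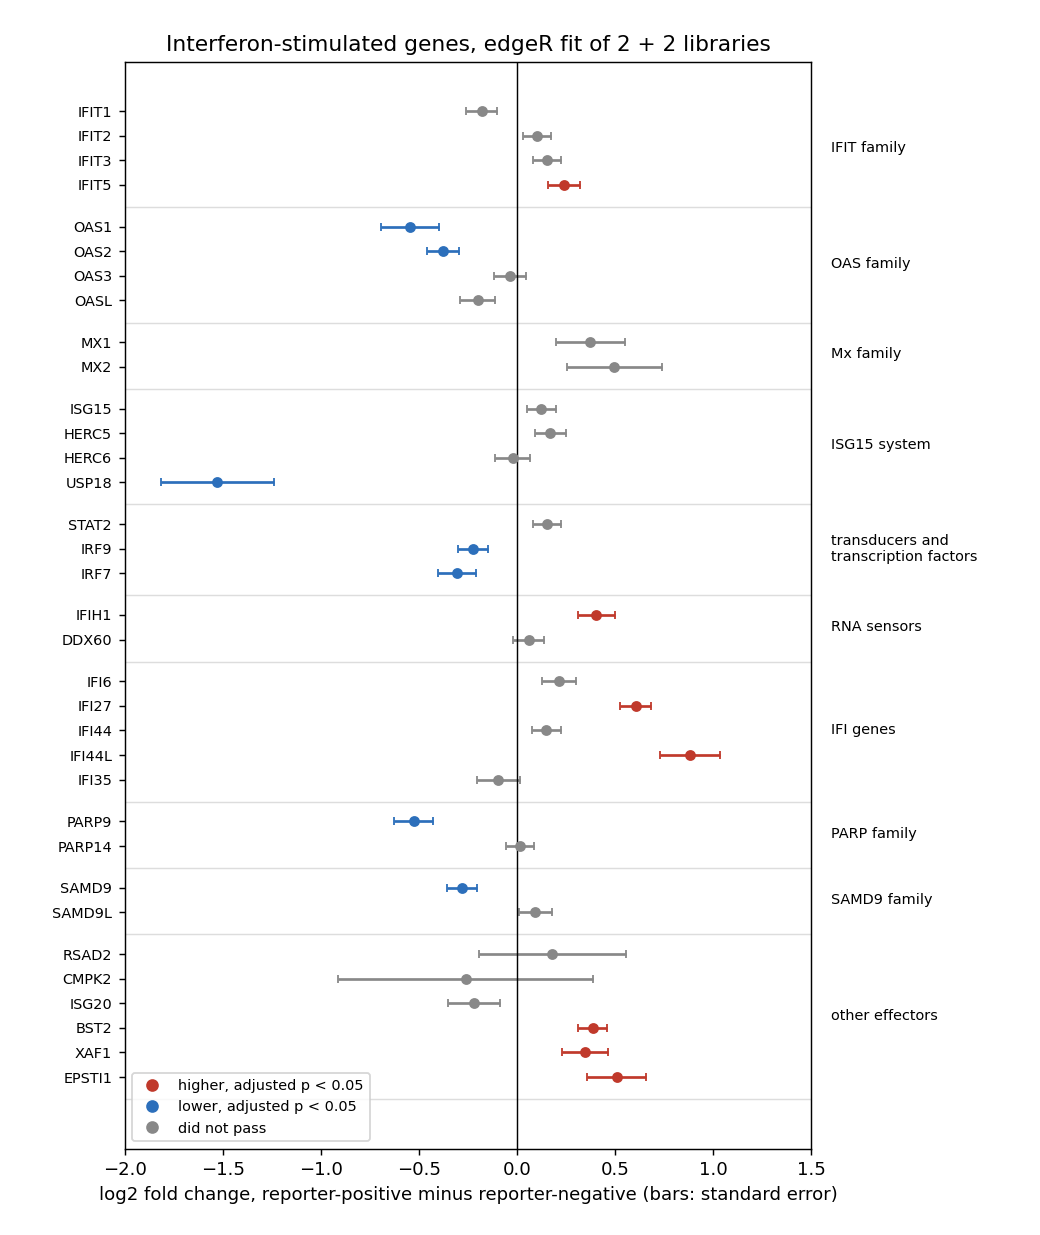
Log2 fold change of the 34 interferon-stimulated genes (x axis, reporter-positive minus reporter-negative line, bars are standard errors) by functional group. Red and blue points passed the test; USP18 lies furthest left at -1.53 and IFI44L furthest right at 0.88, and most other points lie within 0.58 of 0.

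The ISG15 system attaches the ubiquitin-like protein ISG15 to other proteins and removes it again. USP18 (ENSG00000184979, chromosome 22, 18149899 to 18177397, GRCh38, as are all gene positions here) encodes the protease that takes ISG15 off and also holds back signalling at IFNAR2. It had 103 and 87 counts in reporter-negative and 26 and 34 in reporter-positive libraries. Both reporter-positive libraries lay below both reporter-negative ones. USP18 fell from 1.52 ± 0.145 to 0.531 ± 0.166 CPM (SD, n = 2), a log2 fold change of -1.53 (SE 0.29, edgeR adjusted p = 4.75e-04). USP41, a close copy of USP18 elsewhere on the same chromosome, had 24 and 30 counts against 16 and 12 (edgeR adjusted p = 0.195), and reads of the 2 genes may have been shared between them.

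The modifier itself, HERC5 and HERC6 did not pass. ISG15 was at 41.9 and 43.0 CPM in reporter-negative and 44.4 and 48.2 CPM in reporter-positive libraries (edgeR adjusted p = 0.266; 0.0351 without reporter-positive library 1). HERC5, the main ligase for ISG15 in human cells, was at 32.4 and 35.4 against 36.7 and 39.6 CPM (edgeR adjusted p = 0.133; 0.0121 without the same library). HERC6, its relative next to it on chromosome 4, was at 14.1 and 13.5 against 13.2 and 14.0 CPM, with overlapping libraries (edgeR adjusted p = 0.909). Within each library, the ratio of USP18 counts to ISG15 counts was 0.0387 and 0.0329 in reporter-negative and 0.00933 and 0.0135 in reporter-positive libraries, a 3.14-fold lower mean. UBE2L6, the conjugating enzyme that hands ISG15 to its ligases and not one of the 34, rose 1.55-fold, going from 22.1 ± 0.703 to 34.3 ± 2.65 CPM (SD, n = 2; edgeR adjusted p = 5.02e-06). The 32 tested genes within 1 Mb of UBE2L6 had a median log2 fold change of 0.44, and the part of that stretch in its rise was not tested.

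The IFI genes held the 2 largest rises among the 34. IFI27 (ENSG00000165949, chromosome 14, 94104836 to 94116698), a small membrane protein gene that is among the most responsive to type I interferon, had 19.0 and 19.8 CPM in reporter-negative and 30.7 and 28.4 CPM in reporter-positive libraries. The lines did not overlap. IFI27 rose by a log2 fold change of 0.61 (SE 0.08, edgeR adjusted p = 8.02e-06). Its neighbours and relatives IFI27L1 and IFI27L2 did not pass, with log2 fold changes of -0.09 and 0.09 (edgeR adjusted p = 0.689 and 0.510).

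IFI44L (ENSG00000137959, chromosome 1, 78619922 to 78646145), a widely used marker of interferon exposure, had 173 and 164 counts in reporter-negative and 325 and 249 in reporter-positive libraries. In CPM these were 2.72 and 2.67 against 5.17 and 4.75, again with no overlap. IFI44L rose by a log2 fold change of 0.88 (SE 0.15, edgeR adjusted p = 2.06e-04). IFI44, its neighbour downstream, was at 33.1 and 32.3 against 36.9 and 35.7 CPM (edgeR adjusted p = 0.167). The ratio of IFI44L to IFI44 counts within a library, on which scaling has no bearing, went from 0.0823 and 0.0825 to 0.140 and 0.133, a 1.66-fold higher mean. IFI6, which encodes an inhibitor of cell death and of flavivirus replication, was at 14.1 ± 0.0425 and 16.3 ± 0.161 CPM (SD, n = 2; edgeR adjusted p = 0.0859). IFI35 was at 8.85 ± 0.650 and 8.28 ± 0.0831 CPM (SD, n = 2; edgeR adjusted p = 0.624).

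**Figure D2:**
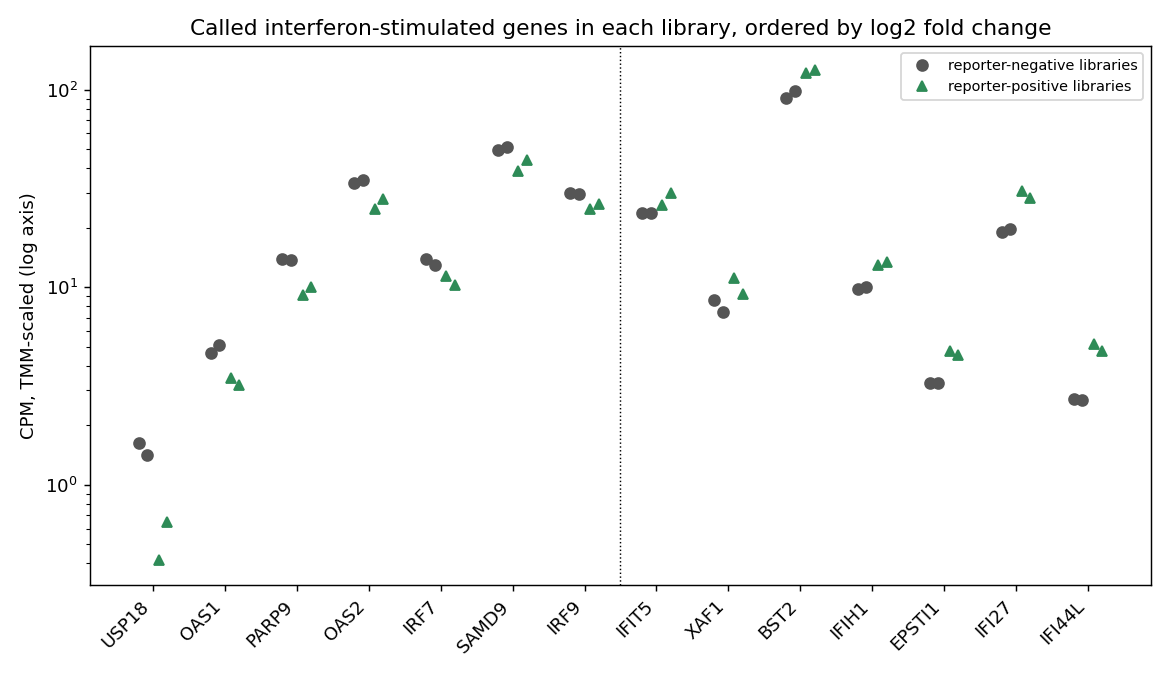
TMM-scaled CPM (log axis) of the 14 called interferon-stimulated genes in each of the 4 libraries, circles for the reporter-negative and triangles for the reporter-positive line, ordered by log2 fold change. In each of the 14 genes the 2 lines do not overlap, and the gap is widest in USP18 at the left. Genes picked by their call on these same libraries tend to separate, so this adds no support. Members that did not pass, such as IFIT2 and ISG15, do not overlap either.

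The OAS enzymes make short oligoadenylates on double-stranded RNA, which switch on an RNase that degrades cellular and viral RNA. OAS2 (ENSG00000111335, chromosome 12, 112978395 to 113011723) had 2139 and 2135 counts in reporter-negative and 1554 and 1466 in reporter-positive libraries. OAS2 fell from 34.2 ± 0.759 to 26.4 ± 2.29 CPM (SD, n = 2), a log2 fold change of -0.38 (SE 0.08, edgeR adjusted p = 0.00138). OAS1 (ENSG00000089127, chromosome 12, 112906777 to 112933222) had 294 and 314 against 217 and 168 counts and fell by 0.55 on the log2 scale (edgeR adjusted p = 0.0106), a call lost without reporter-negative library 2 (log2 fold change -0.48, adjusted p = 0.135 by the same test). OAS3, which lies between them, was at 24.3 and 23.6 against 22.0 and 24.8 CPM, and its lines overlapped (edgeR adjusted p = 0.832).

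Within each library the count ratio of OAS2 to OAS3 was 1.39 and 1.47 in reporter-negative and 1.13 and 1.13 in reporter-positive libraries, and that of OAS1 to OAS3 was 0.190 and 0.217 against 0.157 and 0.129. Both ratios were lower in each reporter-positive library than in either reporter-negative one. An antisense gene, ENSG00000257452, covers all of OAS2 and OAS3 and 25595 of the 26446 bases of OAS1 on the opposite strand. It had 13970 counts over the libraries, where OAS1, OAS2 and OAS3 together had 13959. Nearly all reads in its span thus lay within the OAS genes, and the strand of those reads cannot be told. OASL, an enzymatically inactive relative that aids sensing by RIG-I, was at 19.4 and 20.9 against 16.3 and 18.9 CPM (edgeR adjusted p = 0.122). OASL passed as lower without reporter-positive library 2 (log2 fold change -0.32, adjusted p = 0.00330 by the same test).

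IFIT proteins bind foreign RNA ends and block their translation. The 4 IFIT genes lie side by side on chromosome 10 and had log2 fold changes of both signs. IFIT1 was at 30.9 and 29.7 CPM in reporter-negative and 25.05 and 28.5 CPM in reporter-positive libraries, a log2 fold change of -0.18 (edgeR adjusted p = 0.125; 0.00322 without reporter-positive library 2). IFIT2 was at 44.6 and 45.1 against 46.8 and 49.5 CPM (edgeR adjusted p = 0.369). IFIT3, the partner that stabilises IFIT1, was at 54.7 and 54.9 against 58.8 and 63.2 CPM (edgeR adjusted p = 0.144; 0.00938 without reporter-positive library 1).

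IFIT5 (ENSG00000152778, chromosome 10, 89414586 to 89421001) rose from 23.8 and 23.7 to 26.1 and 29.98 CPM (log2 fold change 0.24, edgeR adjusted p = 0.0419). That call did not hold without either library of the reporter-negative line (0.201 and 0.238 for adjusted p by the same test) or reporter-positive library 2 (log2 fold change 0.13, adjusted p = 0.299 by the same test). The 30 tested genes within 1 Mb of IFIT5 had a median log2 fold change of 0.16, whose part in the rise was not tested. The count ratio of IFIT5 to IFIT1 went from 0.772 and 0.795 to 1.04 and 1.05, and that of IFIT1 to IFIT3 from 0.564 and 0.541 to 0.426 and 0.450, while IFIT2 to IFIT3 stayed between 0.783 and 0.822 in the 4 libraries. IFIT1, IFIT2 and IFIT3 lie within the annotated span of LIPA on the opposite strand, and their summed counts were 74.2% of those listed for LIPA. The strand of those reads cannot be told, so they cannot be assigned to LIPA or to the IFIT genes.

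**Figure D3:**
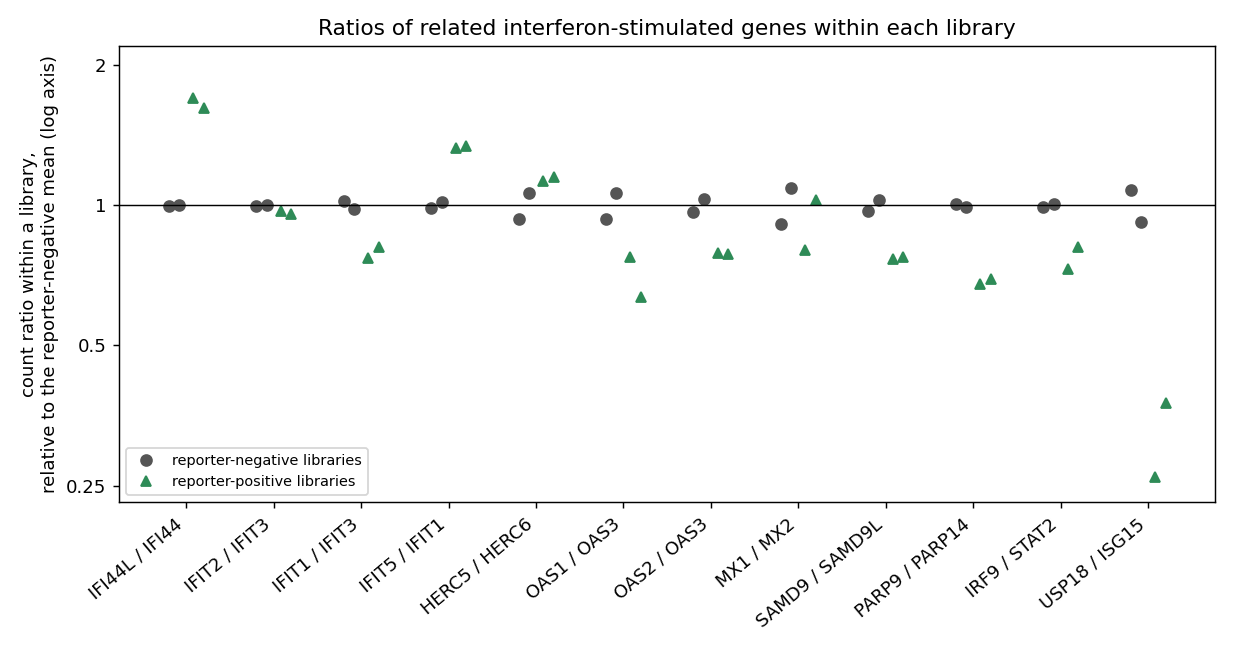
Count ratio of related members within each library, divided by the mean ratio of the reporter-negative libraries (log axis); circles are reporter-negative and triangles reporter-positive libraries. Of the 12 ratios only MX1 to MX2 overlaps between the lines, but the pairs were added after their values were seen. The share of other gene pairs that separate was not computed, and a small shift such as IFIT2 to IFIT3 (means 0.818 and 0.790) also separates. IFI44L to IFI44 is 1.66 times higher and USP18 to ISG15 3.14 times lower in the reporter-positive line.

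Of the members that carry the signal to these genes, IRF9 and IRF7 fell and STAT2 did not pass. STAT2 was at 77.7 and 75.4 CPM in reporter-negative and 87.3 and 83.2 CPM in reporter-positive libraries (edgeR adjusted p = 0.136; 0.0203 without reporter-positive library 2). IRF9 (ENSG00000213928, chromosome 14, 24161053 to 24166565), which gives the complex its grip on DNA, fell from 30.1 and 29.6 to 24.8 and 26.4 CPM (log2 fold change -0.22, edgeR adjusted p = 0.0406). IRF9 lies within ENSG00000259529, a gene model that runs on from RNF31. RNF31 was at 44.5 ± 0.0408 and 44.4 ± 1.11 CPM (SD, n = 2). The IRF9 call was lost without reporter-negative library 1 or 2 or reporter-positive library 1 (same test, adjusted p = 0.311, 0.207 and 0.0957), and the count ratio of IRF9 to STAT2 went from 0.387 and 0.393 to 0.284 and 0.317.

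IRF7 (ENSG00000185507, chromosome 11, 612553 to 615999), the factor that drives most interferon alpha genes, fell from 13.9 and 12.9 to 11.4 and 10.3 CPM (log2 fold change -0.30, edgeR adjusted p = 0.0277). Without reporter-negative libraries 1 or 2, or reporter-positive library 2, IRF7 was not called (same test, adjusted p = 0.312, 0.0753 and 0.0816). The 77 tested genes within 1 Mb of IRF7, near the end of chromosome 11, had a median log2 fold change of -0.24, and the part of that stretch in its fall was not tested.

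Of the RNA sensors, IFIH1 (ENSG00000115267, chromosome 2, 162267079 to 162318703), which encodes MDA5, the receptor for long double-stranded RNA, rose from 9.83 and 10.1 to 12.9 and 13.4 CPM (log2 fold change 0.40, edgeR adjusted p = 0.00360; 0.0579 without reporter-negative library 1). The 9 tested genes within 1 Mb of it had a median of 0.19. DDX60, a helicase that assists such receptors, was at 34.3 and 30.7 against 32.7 and 35.0 CPM with overlapping lines (edgeR adjusted p = 0.683). RIGI, which encodes the sister sensor RIG-I and is not one of the 34, went the other way and fell from 105 and 101 to 79.7 and 78.9 CPM (log2 fold change -0.38, edgeR adjusted p = 4.85e-04; 0.0536 without reporter-negative library 1).

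PARP9 (ENSG00000138496, chromosome 3, 122527924 to 122564577) encodes an ADP-ribosyltransferase relative that works with the ubiquitin ligase DTX3L at sites of DNA damage and in interferon signalling. It had 886 and 841 counts in reporter-negative and 573 and 528 in reporter-positive libraries, with no overlap. PARP9 fell from 13.8 ± 0.184 to 9.60 ± 0.674 CPM (SD, n = 2), a log2 fold change of -0.53 (SE 0.10, edgeR adjusted p = 3.74e-04). DTX3L, which starts head to head with PARP9 and overlaps it by 340 bases, was at 24.8 ± 0.00589 and 22.4 ± 0.995 CPM (SD, n = 2; edgeR adjusted p = 0.204). PARP14, the larger family member nearby, was at 65.6 and 65.3 against 63.8 and 68.6 CPM (edgeR adjusted p = 0.912), and the count ratio of PARP9 to PARP14 went from 0.213 and 0.210 to 0.143 and 0.147.

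SAMD9 and SAMD9L are paired antiviral genes on chromosome 7 whose products restrain protein synthesis and growth. SAMD9 (ENSG00000205413, 93099513 to 93118023) fell from 49.6 and 51.2 to 38.9 and 44.1 CPM (log2 fold change -0.28, edgeR adjusted p = 0.0109), a call lost without reporter-negative library 1 or 2 (same test, adjusted p = 0.0815 and 0.142). SAMD9L was at 19.8 and 19.3 against 19.7 and 22.1 CPM, with overlapping lines (edgeR adjusted p = 0.505). The ratio of SAMD9 to SAMD9L counts went from 2.50 and 2.65 to 1.98 and 2.00.

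Of the remaining effectors, 3 rose. BST2 (ENSG00000130303, chromosome 19, 17402939 to 17405648), or tetherin, which holds budding virus on the cell surface, went from 90.3 and 98.4 to 122 and 125 CPM (log2 fold change 0.39, SE 0.07, edgeR adjusted p = 5.08e-04; 0.0877 without reporter-negative library 1). Per kb of exon, BST2 had the highest level of the 34 in the reporter-negative line at 84.3 CPM, ahead of ISG15 at 45.1 and IFIT3 at 20.8, although reads in introns are also counted. EPSTI1 (ENSG00000133106, chromosome 13, 42886388 to 42992271), first described in breast epithelium next to stromal cells, had 208 and 201 against 299 and 238 counts and rose 1.42-fold (edgeR adjusted p = 0.0168), but was not called without either library of the reporter-negative line (0.114 and 0.113 for adjusted p by the same test). The 11 tested genes within 1 Mb of EPSTI1 had a median log2 fold change of 0.31, whose part in this was not tested.

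XAF1 (ENSG00000132530, chromosome 17, 6755447 to 6775647), an antagonist of the cell death inhibitor XIAP, went from 8.58 and 7.47 to 11.1 and 9.26 CPM (log2 fold change 0.35, edgeR adjusted p = 0.0389). It overlaps PRAL, which had 54.9% as many counts, and was not called without reporter-negative library 2 or reporter-positive library 1 (same test, adjusted p = 0.362 and 0.226). ISG20, an RNA exonuclease gene, was at 6.28 and 6.22 against 5.02 and 5.74 CPM (edgeR adjusted p = 0.273). The Mx GTPases, which trap viral capsids, did not pass: MX1 was at 2.68 and 2.87 against 3.07 and 4.14 CPM (edgeR adjusted p = 0.151; 0.00917 without reporter-positive library 1) and MX2 at 1.07 and 0.961 against 1.40 and 1.47 CPM (edgeR adjusted p = 0.167).

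The strongly inducible gene pair RSAD2 and CMPK2 had the lowest counts of the reporter-negative line among the 34. RSAD2, which encodes the antiviral enzyme viperin, had 26 and 35 counts in reporter-negative and 26 and 37 in reporter-positive libraries, and CMPK2, a mitochondrial nucleotide kinase gene that overlaps it, had 5 and 16 against 6 and 10. Both overlapped between lines, and at such counts a difference could not be resolved (standard errors of 0.38 and 0.65 on the log2 scale).

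**Figure D4:**
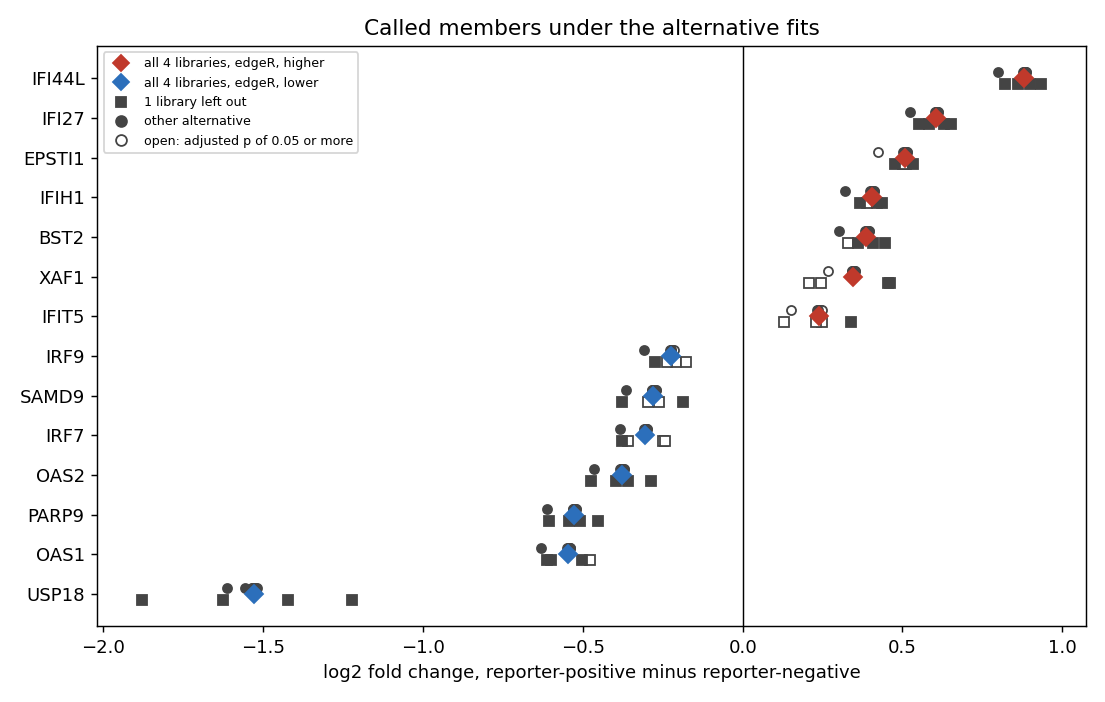
Log2 fold change (x axis) of the 14 called members with all 4 libraries in edgeR (diamonds), under the alternatives that leave out a library (squares) and under the other alternatives (circles); open symbols have an adjusted p of 0.05 or more. None of the 14 changed sign, and OAS2, USP18, IFI27, IFI44L and PARP9 have filled symbols throughout.

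Of the 14 calls, those of OAS2, USP18, IFI27, IFI44L and PARP9 held in each of the 11 alternative fits. With total count scaling in edgeR, IFIT5, XAF1 and EPSTI1 were not called (adjusted p = 0.233, 0.201 and 0.0851), while IFIT1 and OASL were called lower (adjusted p = 0.0295 and 0.0457). With DESeq2, IFIT5, XAF1, IRF7 and IRF9 were not called (adjusted p = 0.0849, 0.0843, 0.0835 and 0.104). IRF9 was also not called with RLE scaling in edgeR (adjusted p = 0.0540), nor IFIT5 with limma-voom (adjusted p = 0.0550). Counting took in introns and either strand, so reads in bases that a member shares with an overlapping gene could not be assigned to either. Members overlapping a gene with at least 10% as many counts were set aside, whatever the number of shared bases. PARP9, for example, was set aside although it shares only 340 of its 36654 bases with DTX3L. Among the 21 members without such a gene, 6 rose and 3 fell. Over all tested genes 11.6% were called higher and 10.9% lower, and over protein-coding genes at 1 CPM or more 16.4% and 16.8%.

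Around the members, the pathway was read from 7 lists. The counts for each list stand beside 11.6% higher and 10.9% lower over all tested genes. Among protein-coding genes at 1 CPM or more these shares were 16.4% and 16.8%. Interferon ligand transcripts were at or near 0: of 12 ligand genes listed, 6 were in the table, IFNB1 and IFNE had 0 counts in all 4 libraries, and the most any ligand had in a library was 6 counts, for IFNK. A count of 0 allows up to 3 counts, or 0.0573 CPM in the shallowest library. The type I receptor genes IFNAR1 (53.7 ± 0.333 and 53.7 ± 3.57 CPM, SD, n = 2) and IFNAR2 (16.0 ± 0.0138 and 16.4 ± 0.708 CPM, SD, n = 2) did not pass (edgeR adjusted p = 0.994 and 0.846). The ligand-binding interferon gamma receptor gene IFNGR1 rose from 28.8 and 28.9 to 42.3 and 47.3 CPM (edgeR adjusted p = 3.07e-06), with a median of 0.28 in the 16 tested genes within 1 Mb of it. The interferon lambda receptor gene IFNLR1 fell from 5.90 ± 0.0595 to 3.15 ± 0.463 CPM (SD, n = 2; edgeR adjusted p = 1.07e-04). Its partner chain gene IL10RB, which overlaps the read-through gene IFNAR2-IL10RB, rose 1.19-fold (adjusted p = 0.0323 by the same test; 0.388 and 0.0924 without reporter-negative library 1 or 2, and 0.253 with total count scaling).

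Of 9 kinases, STATs and interferon regulatory factors 1 rose, 1 fell (11.1% each way) and 7 did not pass. The count called lower was 3 with total count scaling, with the filter at 1 CPM, with the replicate block and without reporter-positive library 1, and 0 without reporter-negative library 1. The kinase gene JAK2, which serves the gamma receptor and overlaps INSL6, fell by 0.40 on the log2 scale (edgeR adjusted p = 0.00235; 0.0693 without reporter-negative library 1). IRF1, which overlaps IRF1-AS1, rose from 30.3 ± 1.82 to 36.7 ± 0.328 CPM (SD, n = 2; edgeR adjusted p = 0.0105; 0.276 without reporter-negative library 2 and 0.106 with total count scaling). IRF1 also lies wholly within ENSG00000283782 on the opposite strand, which had 20359 counts over the libraries against 8019 for IRF1. Of 12 tested nucleic acid sensing genes 2 rose, 2 fell (16.7% each way) and 8 did not pass. Here the count called lower was 0 without reporter-negative library 1 and 4 without reporter-positive library 1. IKBKE, a kinase that activates IRF3 and IRF7 and overlaps IKBKE-AS1, rose 1.61-fold (edgeR adjusted p = 6.88e-07), and TLR3, the endosomal receptor for double-stranded RNA, rose 1.67-fold (adjusted p = 4.75e-04 by the same test). TICAM1, the adaptor of TLR3, fell from 9.78 ± 0.336 to 7.24 ± 0.278 CPM (SD, n = 2; edgeR adjusted p = 0.00617; 0.106 without reporter-negative library 1).

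Of 11 negative regulators and modulators of interferon signalling 3 rose (27.3%), 4 fell (36.4%) and 4 did not pass. With total count scaling, or without reporter-negative library 1 or 2, 1 of the list was called higher, since the phosphatase genes PTPN2 and PTPN6 (edgeR adjusted p = 0.0185 and 0.0362 with all libraries) were not called there. The JAK inhibitor genes SOCS1 and SOCS3 parted: SOCS1, which lies within reads also counted for RMI2, rose 2.32-fold, going from 0.832 ± 0.0710 to 1.93 ± 0.0353 CPM (SD, n = 2; edgeR adjusted p = 6.47e-04), and SOCS3 fell from 31.9 ± 0.665 to 22.0 ± 2.05 CPM (SD, n = 2; adjusted p = 4.34e-05 by the same test). PIAS1, an inhibitor of STAT signalling, and NLRC5, an activator of MHC class I genes also reported to restrain interferon signalling, fell by 0.52 and 0.44 on the log2 scale (edgeR adjusted p = 2.05e-05 and 3.73e-04). Both lie in stretches that were lower, with neighbour medians of -0.50 and -0.29.

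Of 31 other interferon-stimulated genes 9 rose, 6 fell and 16 did not pass, where 11.6% of all tested genes were called higher and 10.9% lower. Among those that rose, TAP1 lies wholly within the span of PSMB9, which PSMB8 also overlaps, so some of their reads may have been counted more than once. Without reporter-negative library 1, 5 of the 31 were called higher. PML, the organiser of nuclear bodies, fell from 94.3 ± 3.28 to 53.3 ± 4.70 CPM (SD, n = 2; edgeR adjusted p = 8.52e-08), in a stretch of chromosome 15 where the 39 tested neighbours had a median of -0.51. IFITM1 and IFITM2, which block virus entry, fell by 0.57 and 0.53 on the log2 scale (edgeR adjusted p = 3.12e-05 and 1.82e-05), with a neighbour median of -0.25 for IFITM1. IFITM1 lies wholly within IFITM2 on the same strand, so the same reads may enter both falls. IFITM3, next to them, did not pass (log2 fold change -0.13, edgeR adjusted p = 0.506). Of 16 tested genes better known as interferon gamma targets 7 rose, 2 fell and 7 did not pass, and 1 was called lower with RLE scaling or without reporter-negative library 1 or 2. ICAM1, an adhesion gene that NF-kappaB also drives and that overlaps LIMASI, rose 2.25-fold (edgeR adjusted p = 2.53e-10), the GTPase gene GBP4 rose 2.04-fold (adjusted p = 2.80e-06 by the same test) and CD274, which encodes the checkpoint ligand PD-L1, rose 1.54-fold (adjusted p = 1.96e-05 by the same test). SECTM1 fell from 16.2 ± 0.516 to 9.63 ± 0.341 CPM (SD, n = 2; edgeR adjusted p = 4.05e-06). Over all 85 tested genes of these lists, 24 rose and 16 fell; without reporter-negative library 1 these counts were 16 and 9.

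**Figure D5:**
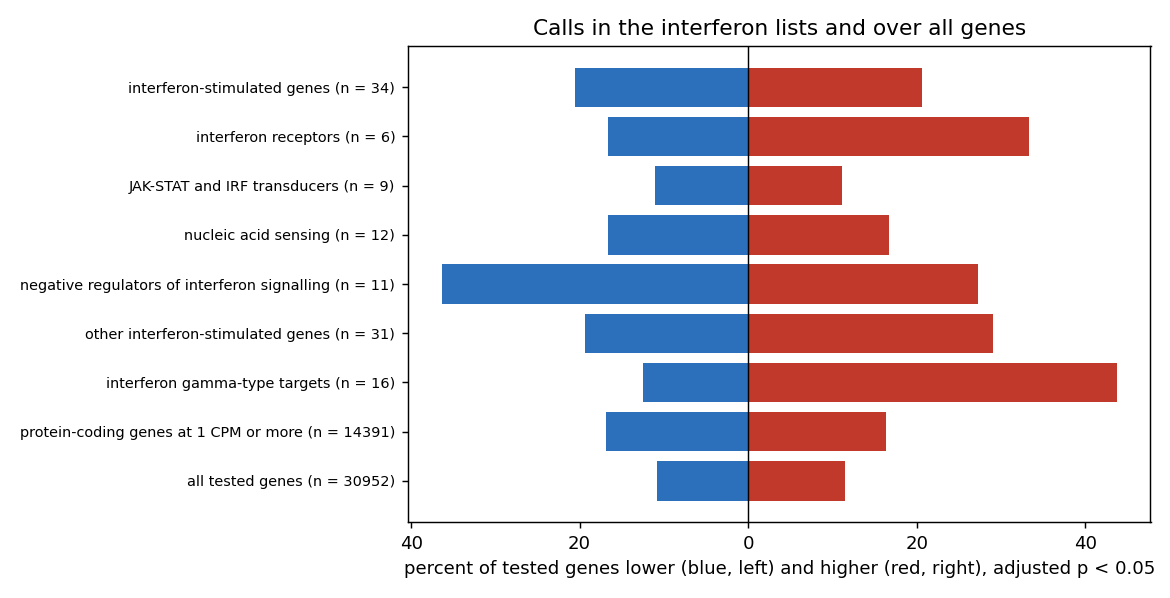
Percent of tested genes called lower (bars to the left) and higher (bars to the right) in the 34 members, in each pathway list and over all genes, with the number of genes tested. The members stand at 20.6% each way, and all tested genes at 11.6% higher and 10.9% lower. Protein-coding genes at 1 CPM or more, the closer background for the members, stand at 16.4% higher and 16.8% lower.

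The libraries held 55894092 to 63034563 counts. The mesenchymal marker VIM was present in both lines but fell from 2714 and 2625 to 1257 and 1343 CPM (edgeR adjusted p = 1.91e-07), and EGFR was at 335 CPM or more in each library and did not pass. CD44 rose 1.18-fold (edgeR adjusted p = 0.0373), a call lost with total count scaling and without reporter-negative library 1 or 2 or reporter-positive library 2. Of the receptors whose absence defines triple-negative cells, PGR was at 0.619 CPM or less and ESR1 at 4.88 to 6.18 CPM, neither of which passed, and ERBB2 fell from 81.0 and 81.1 to 63.8 and 64.3 CPM (edgeR adjusted p = 0.00108), each with reads of overlapping genes included. Of 7 leukocyte markers 3 were tested and none passed, and their summed level was 5.34 and 6.48 CPM in reporter-negative and 7.69 and 7.33 CPM in reporter-positive libraries, while 5 fibroblast markers summed to 13.4 to 15.2 CPM over the 4 libraries, with LUM higher and PDGFRB lower. Of 3 endothelial markers none passed, with sums of 60.3 to 90.0 CPM, nearly all of it PECAM1. No defining marker of these lists was at 0 in all 4 libraries, and their part in the results was not tested.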

How the data were processed

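The deposited table holds raw counts, by Ensembl gene ID, for 4 libraries of total RNA (1 ug each). Per the submitters' processing notes, HISAT2, Bowtie2, DESeq2 and the build hg19 were used; their roles, the counting tool, the annotation and the strandedness used in counting were not given in the sources. All 43714 IDs are in GENCODE release 29 (GRCh38), which gave positions. In all 3079 cases of a gene with at least 100 counts inside another without a shared exon, the outer gene had at least as many counts, so whole spans were counted.

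Counts were tested in edgeR 4.0.16 (R 4.3.3; TMM, filterByExpr with minimum count 10 and minimum total 15, robust quasi-likelihood F test, line as the only term; standard error from the F statistic), after a check on simulated data. CPM uses TMM-scaled library sizes. A chi-square test told the libraries of each line apart (37.6 and 19.4 for each degree of freedom), so none was a duplicate. Alternatives were RLE and total count scaling, other filters, DESeq2 1.42.0, limma-voom (limma 3.58.1), the library number as a block and leaving out each library.

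Members and lists were chosen with earlier results of these data known. All members are named. In each other list, up to 4 called genes with the smallest adjusted p are named. IFNAR1, IFNAR2, the ratio pairs, close copies and the overlapping genes TAP1, PSMB8 and PSMB9 were added after their values were seen. The rule also held 1 gene to be named whatever its call, which is not reported here.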

Additional observations from a re-analysis of the deposited data

How the results depend on the processing

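Of the 14 called members, 14 kept their call without a count filter, at 1 CPM in 2 libraries and with the library number as a replicate block, 13 with RLE scaling and with limma-voom, 11 with total count scaling and 10 with DESeq2, and 7, 7, 12 and 12 without the reporter-negative libraries numbered 1 and 2 and the reporter-positive libraries numbered 1 and 2. Total count scaling, which shifted the median over all genes by -0.08 (log2), left 4 members and 2270 of all genes higher, with 9 and 4032 lower. Among members without an overlapping gene of at least 10% as many counts 3 fell, a set that leaves out PARP9. Leaving out each library gave 3 to 10 members higher and 3 to 8 lower, 2333 to 4704 of all genes higher and 2025 to 4457 lower, and 16 to 30 genes of the pathway lists higher and 9 to 21 lower. Each such fit leaves a line with 1 library, which is assumed to vary like the other line. No called member changed sign in these fits. Among genes that did not pass, log2 fold changes turned negative with total count scaling in DDX60 (-0.025) and PARP14 (-0.069). When each library was left out they spanned 0, from -0.88 to 0.82 in CMPK2, -0.022 to 0.15 in DDX60, -0.073 to 0.024 in HERC6, -0.13 to 0.055 in OAS3, -0.043 to 0.072 in PARP14 and -0.25 to 0.53 in RSAD2. The cause was not tested. Whether the shared library numbers pair the samples was not settled. Deviations of same-numbered libraries correlated at -0.03 across 30952 genes, each weighted alike, so noise in low-count genes may hide a pairing. With the replicate block 4175 genes were higher and 4051 lower, against 3576 and 3366 without it, with 7 members each way. With 2 libraries per line, low genes such as CMPK2 and RSAD2 are limited by counting error.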
